A study of Homo sapiens with 2 samples.

Results

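Substrate receptors of cullin ligases are the interchangeable subunits that pick which protein a cullin-RING ubiquitin ligase marks. The cullin is a scaffold that holds a RING protein at one end and an adaptor at the other. CUL1 binds F-box proteins through SKP1, CUL4A and CUL4B bind DCAF proteins through DDB1, and CUL3 binds BTB proteins directly. Receptors exchange on a shared pool of cullins, so their relative abundance bears on which substrates are served, and several receptors (SKP2, FBXW7, SPOP) are known for roles in cell cycle control and cancer.

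The receptors were taken by symbol, by a rule that uses no values, although the families were chosen with earlier results of these data known. CUL4 receptors were symbols starting with DCAF and a digit, with CRBN, DTL and DDB2. CUL1 receptors were those starting with FBXO, FBXW or FBXL and a digit, with SKP2. CUL3 receptors were those starting with KLHL or KCTD and a digit, with SPOP. This gave 113 receptor genes of 12918 genes in the deposited table, namely 16 for CUL4, 54 for CUL1 and 43 for CUL3. In the reference annotation 144 protein-coding symbols fit these rules, and the other 31 were not analysed here. A symbol is a family name and no proof of a ligase: several KCTD proteins have no settled tie to CUL3, and FBXW8 is best known as the partner of CUL7.

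The cells were MDA-MB-231, a human breast cancer cell line, sampled 48 h after transfection. One library was from cells given a THAP7-AS1 Smart Silencer, a reagent against the long noncoding RNA THAP7-AS1, and the control library was from cells given si-NC. The table has one column named for si-NC and one named si-v. The si-v column was assigned to the silenced cells by elimination, as the meaning of v is not stated, and is named here by its header. With 1 library per group there was no spread between cultures and no test of a difference, so everything below describes these 2 libraries.

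Levels are FPKM (fragments per kilobase of transcript, scaled to library depth) summed over the listed transcripts of a gene. The difference is the log2 ratio log2((si-v + 1)/(control + 1)), positive when the si-v library was higher; the added 1 understates differences of low genes. Genes of at least 1 FPKM in either library entered counts and medians, which left 11046 genes and 103 receptors. Estimated depth on the listed transcripts was about 7850000 fragments for control and about 8320000 for si-v. None of the 3 annotated transcripts of THAP7-AS1 was listed, so the silencing was not checked here; its neighbour THAP7 stood at 1.5 and 1.6 FPKM. The line's markers VIM (344 and 373 FPKM in control and si-v), AXL (259 and 204) and CD44 (152 and 114) were high. SPARC, also taken as a marker of the line, was not listed. ESR1 was listed at 0, and ERBB2 stood at 4.65 and 17.4 FPKM.

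The receptor mRNAs were close between the libraries, and more of them were lower than higher in the si-v library. The log2 ratio was below 0 for 68 of the 103 receptors (66.0%), against 49.6% of all genes. The median log2 ratio was -0.12 over receptors and 0.00 over all genes. At 1.5-fold or more, 8 receptors were higher (all genes: 9.82%) and 9 were lower (all genes: 8.91%), or 17 in either direction (all genes: 18.7%). These are 7.77% and 8.74% of the receptors, each near the share of all genes. Among the 63 receptors of at least 5 FPKM in either library, 4 were higher (all such genes: 9.93%) and 6 lower (all such genes: 8.67%). At 2-fold or more, 0 receptors were higher (all genes: 2.37%) and 2 were lower (all genes: 2.49%), which makes 2 in either direction (all genes: 4.86%).

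**Figure D1:**
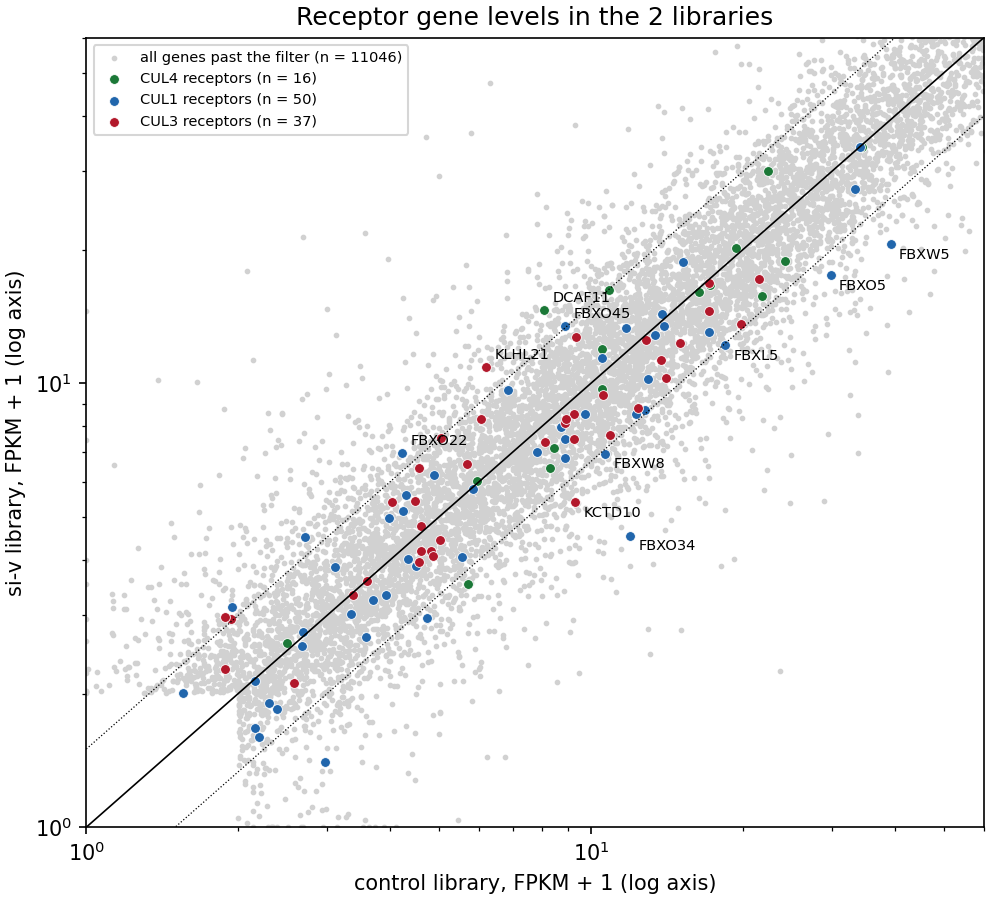
Level of each receptor in the control library (x axis) and the si-v library (y axis), as FPKM + 1 on log axes, over all genes past the filter in grey (the axes end at 60, so genes of higher level lie outside). The solid line marks equal levels and the dotted lines 1.5-fold; receptors of at least 5 FPKM past 1.5-fold are named, and 86 of 103 receptors lie between the dotted lines.

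The classes stood at different levels. CUL4 receptors were the most highly expressed class, with a median of 9.69 FPKM in control against 14.2 in si-v, and all 16 passed the filter. CUL1 receptors had medians of 4.69 and 4.99 FPKM over 50 genes, and CUL3 receptors 5.20 and 6.48 over 37. Each of these medians was taken within 1 library, so the gap between 2 of them is not the difference of a typical gene. Gene by gene, the median log2 ratio was below 0 in each class, at -0.02 for CUL4 receptors. Summed over all listed members, CUL4 receptors held 211 FPKM in control against 214 in si-v, CUL1 receptors 413 and 352, and CUL3 receptors 273 and 251. The CUL4 total was thus nearly level while those of CUL1 and CUL3 receptors were lower in the si-v library.

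By class, the median log2 ratio was -0.02 for CUL4, -0.15 for CUL1 and -0.13 for CUL3 receptors. Below the control stood 9 of 16 CUL4, 34 of 50 CUL1 and 25 of 37 CUL3 receptors. At 1.5-fold or more, CUL4 had 1 receptor higher and 1 lower, CUL1 had 4 higher and 7 lower, and CUL3 had 3 higher and 1 lower. Of all genes, 9.82% were higher and 8.91% lower. The 7 lower CUL1 receptors are 14.0% of that class, against 8.91% of all genes. Of the CUL1 receptors past 1.5-fold, FBXL8 passed the filter in the control alone and FBXO32 in the si-v library alone. Their places in these counts are thus partly set by the filter. With 1 library per group, the differences between the classes were not tested.

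Within the classes the FBXL family, F-box proteins with leucine-rich repeats taken by symbol, lay lowest by median. Of 15 FBXL genes past the filter (SKP2, which has such repeats, included), 12 were below the control (all genes: 49.6%), with a median log2 ratio of -0.37; 3 were lower by 1.5-fold (all genes: 8.91%) and 0 higher (all genes: 9.82%). Read from the most abundant transcript, none of these 3 stayed past 1.5-fold, with FBXL17 at 0.07, FBXL5 at -0.40 and FBXL8 at -0.45. FBXL8, FBXL13 and FBXL16 passed the filter in the control library alone, so their place below the control is partly set by the filter. FBXL6, higher in the si-v library at 0.463 and 0.734 FPKM, did not pass it. KDM2A and KDM2B, F-box proteins with such repeats under other symbols, were not counted in this family, and both were higher in si-v. KDM2A stood at 24.5 FPKM in control against 38.1 in si-v (0.62), past 1.5-fold. KDM2B stood at 4.75 and 7.23 FPKM (0.52). The FBXW family (WD repeats) had a median of -0.13 over 7 genes and the FBXO family (other domains) -0.06 over 28. Among CUL3 receptors the KLHL family (BTB-Kelch proteins) had a median of -0.14 over 21 genes. By 1.5-fold, 3 KLHL genes were higher (all genes: 9.82%) and 0 lower (all genes: 8.91%). For KLHL24 and KLHL26, 2 of these 3, the filter was passed in the si-v library alone, so their place in that count is partly set by the filter. The KCTD family (a BTB fold without Kelch repeats) had -0.02 over 15 genes, with 0 higher (all genes: 9.82%) and 1 lower (all genes: 8.91%). DCAF genes had -0.01 over 13.

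**Figure D2:**
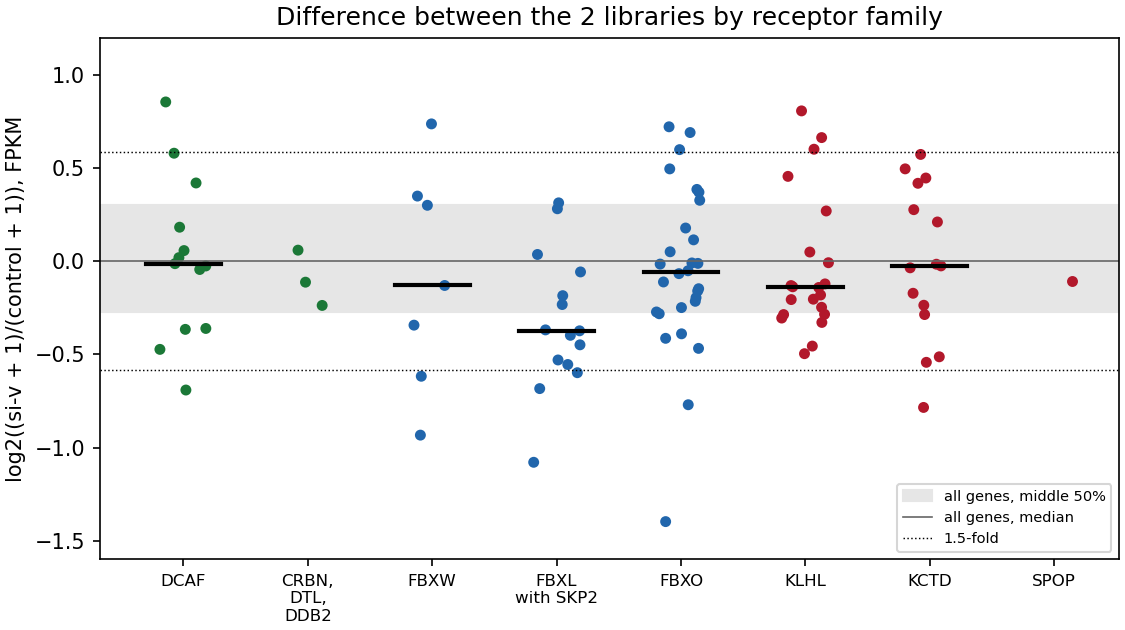
Log2 ratio (y axis) of each receptor past the filter, by family (x axis; green CUL4, blue CUL1, red CUL3); black bars are family medians where a family has at least 5 genes. The grey band holds the middle 50% of all genes; only the FBXL median, at -0.37, lies below it.

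Of the CUL4 receptors at high level, some were even between libraries and others were not. DCAF8, one of the DCAF proteins with WD repeats that dock on DDB1, was the highest at 33.4 FPKM in control against 33.1 in si-v (log2 -0.01). DCAF1, the receptor that the HIV protein Vpr recruits, stood at 18.4 and 19.2 FPKM (0.06), and DCAF16, which some targeted degraders engage, at 16.2 and 15.7 (-0.04). DCAF6, also described as a coactivator of nuclear receptors, was higher in the si-v library, at 21.4 and 29 FPKM (0.42). DCAF7, a scaffold for DYRK kinases, was lower at 23.2 and 17.8 (-0.37), and so was DCAF5, a quality control receptor for chromatin remodelling complexes, at 20.9 and 14.7 (-0.47). By FPKM both stayed inside 1.5-fold, while the fragment ratio of DCAF5 was -0.67, past it.

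The CUL4 receptors farthest apart were DCAF11 upward and DCAF4 downward. DCAF11, which electrophilic degraders can recruit, stood at 7.08 FPKM in control against 13.6 in si-v, a log2 ratio of 0.86. Its value is the sum of 15 listed transcripts, many short, and rests on about 113 and 220 fragments. DCAF4 stood at 4.71 and 2.54 FPKM (-0.69), on about 126 and 78 fragments. DCAF13, a nucleolar protein of ribosome assembly, stood at 9.83 and 15.2 FPKM (0.58), just inside 1.5-fold with the added 1. Its fragment ratio was 0.62, past 1.5-fold. Read from the most abundant transcript alone, DCAF11 and DCAF4 both lay inside 1.5-fold, at log2 ratios of 0.58 and -0.30.

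The other named CUL4 receptors lay close to the control. CRBN, the receptor of thalidomide-type drugs, stood at 7.43 FPKM in control against 6.15 in si-v (-0.24; 95% counting interval of its depth-corrected fragment ratio -0.53 to 0.12). DTL, the receptor that removes CDT1 at replication sites, stood at 9.51 and 8.72 FPKM (-0.11; -0.31 to 0.06). DDB2, the ultraviolet damage sensor, was the lowest CUL4 receptor at 1.5 and 1.6 FPKM (0.06), and its about 19 and 22 fragments leave -0.86 to 1.06 possible. DCAF15, the receptor that aryl sulfonamides bring to RBM39, stood at 9.54 and 11.0 FPKM (0.18). These intervals are exact Clopper-Pearson intervals on estimated fragments and cover counting error only.

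Among CUL1 receptors the 3 highest by mean level were FBXO7, FBXO11 and FBXW5. FBXO7, a parkinsonism gene product that acts in mitophagy, was level at 33.2 and 33.0 FPKM in control and si-v (-0.01). FBXO11 stood at 32.3 and 26.4 FPKM (-0.28). FBXW5, which acts on the centriole protein SAS-6, was the highest receptor of all in the control at 38.3 FPKM and stood at 19.6 in the si-v library (log2 -0.93). The fragment ratio (the log2 ratio of estimated fragments, corrected for depth) of FBXW5 was -1.15, with a counting interval of -1.32 to -0.98.

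The largest difference of any receptor was that of FBXO34, an F-box protein of less settled function, at 10.9 FPKM in control against 3.53 in si-v (log2 -1.40). Its fragments numbered about 417 and 142, a log2 ratio of -1.67 with a counting interval of -1.95 to -1.39. FBXL8 was the other receptor lower by 2-fold, at 1.97 and 0.406 FPKM (-1.08), but on only about 17 and 5 fragments. FBXO5, the inhibitor EMI1 of the anaphase-promoting complex, stood at 28.8 and 16.5 FPKM (-0.77), and both of its listed transcripts were lower, FBXO5-201 at 21.7 and 10.6 and FBXO5-202 at 7.17 and 5.88 FPKM. FBXW8 stood at 9.65 and 5.94 FPKM (-0.62) and the iron sensor FBXL5 at 17.5 and 11.2 (-0.60). FBXL17, which clears faulty BTB dimers, stood at 3.74 and 1.95 FPKM (-0.68).

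In FBXL17 and FBXL8 the gene value hides unequal transcripts. The leading transcript of FBXL17 stood at 1.41 FPKM in control against 1.52 in si-v, a log2 ratio of 0.07, opposite to the gene. FBXL17-205 was lower in si-v, as the gene was, at 1.25 and 0.0455 FPKM. FBXL8-202 was listed at 1.05 FPKM in control and at 0 in si-v.

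The 4 CUL1 receptors higher by 1.5-fold were FBXW9, FBXO22, FBXO32 and FBXO45. FBXO45, part of an atypical ligase with SKP1 in neurons, stood at 7.89 FPKM in control against 12.5 in si-v (0.60), with both listed transcripts higher. FBXW9 stood at 1.71 and 3.52 FPKM (0.74) from a single listed transcript. FBXO32, the muscle atrophy receptor atrogin-1, was low at 0.942 and 2.14 FPKM (0.69) and passed the filter in the si-v library alone. On its most abundant transcript it stood at a log2 ratio of 0.34. FBXO22, a receptor of histone demethylases, stood at 3.22 and 5.96 FPKM (0.72), but this came from 1 transcript of 316 bases, FBXO22-204, at 0.563 and 3.25 FPKM. The full-length FBXO22-201 stood at 1.97 and 1.86, and the fragment ratio of the gene was -0.01.

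Other well-known CUL1 receptors stayed inside 1.5-fold by the log2 ratio with the added 1. SKP2, the receptor of the CDK inhibitor p27, stood at 11.3 FPKM in control against 7.51 in si-v (-0.53; counting interval of the fragment ratio -0.72 to -0.08). FBXW7, the tumour suppressor that recognises phosphorylated cyclin E and MYC, stood at 7.73 and 6.98 FPKM (-0.13; -0.16 to 0.32). FBXL14 stood at 11.8 and 7.71 FPKM (-0.55), with a fragment ratio of -0.61, past 1.5-fold. Of these, SKP2 and FBXL14 were lower beyond counting error, and the interval of FBXW7 includes no change. FBXW2 stood at 14.2 and 17.8 FPKM (0.30) and FBXO46 at 5.85 and 8.67 (0.50), both higher in the si-v library.

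CUL3 receptors reached lower levels than the other classes, none above 20.5 FPKM. The 3 highest by mean were KLHL5 at 20.5 FPKM in control against 16.1 in si-v (-0.33), KCTD5 at 16.1 and 15.8 (-0.02), and KCTD9 at 18.8 and 12.6 (-0.54). The CUL3 receptor farthest above the control was KLHL21, which directs Aurora B in dividing cells, at 5.20 and 9.85 FPKM (0.81; fragment ratio 0.89, counting interval 0.67 to 1.10). KLHL26, at 0.879 and 1.98 FPKM (0.66), and KLHL24, an intermediate filament regulator in skin, at 0.938 and 1.94 (0.60), were the other CUL3 receptors higher by 1.5-fold, and both were low. On its most abundant transcript KLHL24 stood at a log2 ratio of 0.22, inside 1.5-fold.

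KCTD10, which with CUL3 acts on RHOB, was the CUL3 receptor lower by 1.5-fold, at 8.29 FPKM in control against 4.40 in si-v (-0.78; fragment ratio -0.86, counting interval -1.13 to -0.60). KCTD12, better known as an auxiliary subunit of GABA-B receptors, stood at 9.88 and 6.63 FPKM (-0.51). KLHL2, a receptor of WNK kinases, stood at 11.4 and 7.80 (-0.50), and KLHL12, which acts on the COPII coat and Dishevelled, at 13.1 and 9.29 (-0.46). SPOP, a receptor of nuclear proteins such as DAXX, stood at 7.93 and 7.29 (-0.11; -0.39 to 0.23). KLHL22, whose gene lies near THAP7-AS1 on chromosome 22, stood at 3.60 and 3.77 (0.05; -0.26 to 0.64), with no change inside the interval.

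The close relatives KCTD2, KCTD5 and KCTD17 did not lie together. KCTD5 was level, while KCTD2 stood at 8.32 FPKM in control against 11.7 in si-v (0.45) and KCTD17 at 3.57 and 5.45 (0.50). FBXW11 and its paralog BTRC, which share the recognition of beta-catenin and IkB, were both lower, at 12 and 9.22 FPKM (-0.34) and at 9.20 and 5.88 (-0.57). These groups were picked after their values were seen. KCTD14 stood at 12.8 and 10.3 FPKM (-0.29), and the readthrough gene NDUFC2-KCTD14, which shares its sequence, was listed at 0 and 0.663 FPKM, so fragments could have been split between them.

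**Figure D3:**
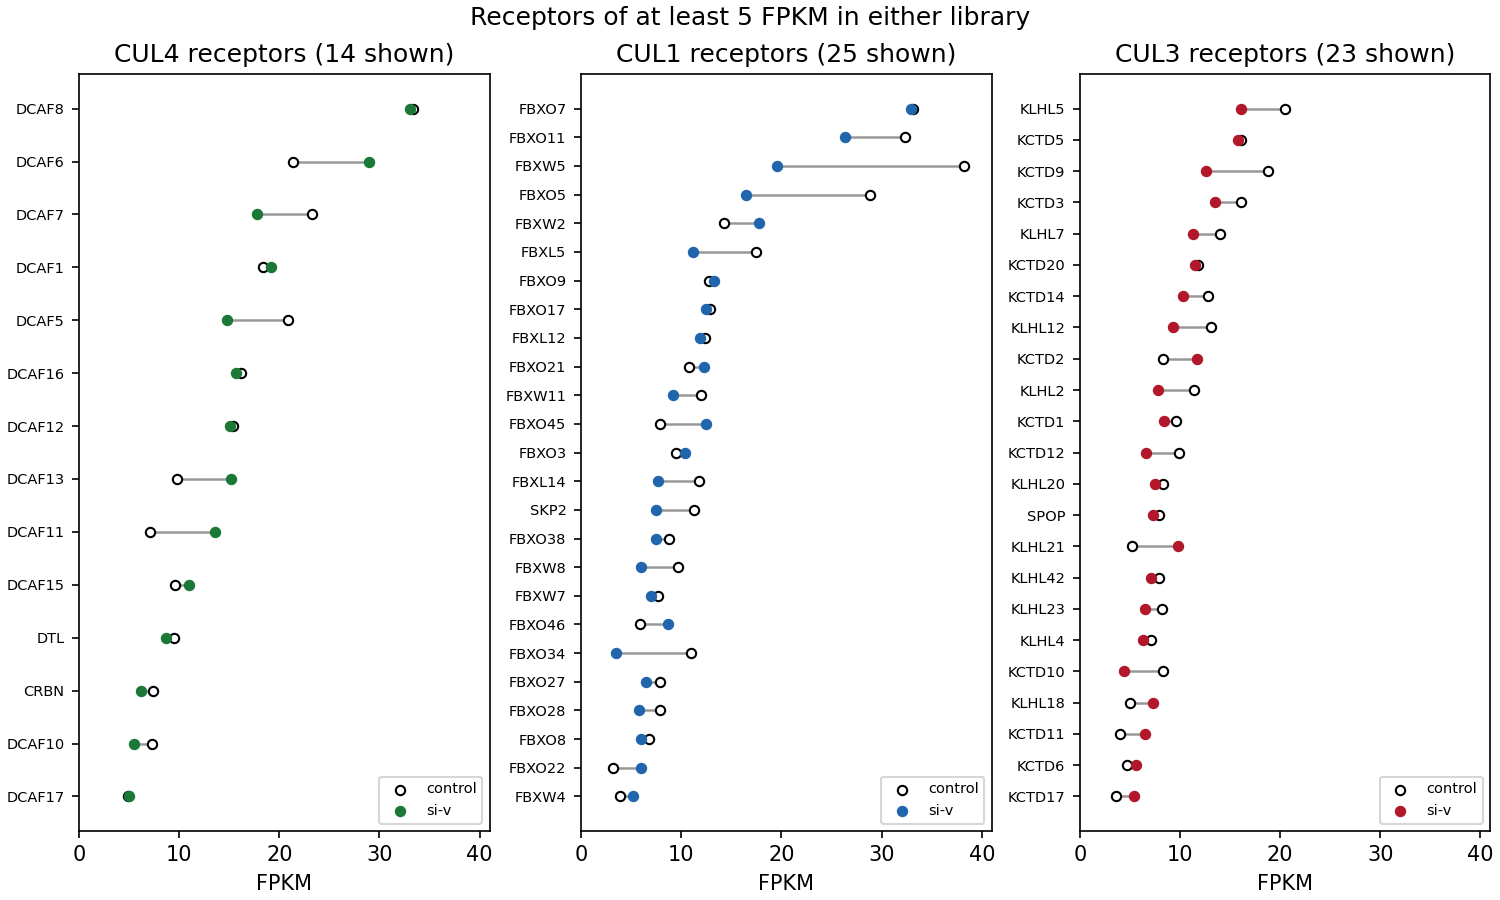
FPKM (x axis) of receptors with at least 5 FPKM in either library (1 of them is not shown), ordered by mean level within its class; open circles are the control and filled circles the si-v library. FBXW5 (38.3 and 19.6), FBXO5 (28.8 and 16.5) and FBXO34 (10.9 and 3.53) show the widest downward gaps among CUL1 receptors, and KLHL21 (5.20 and 9.85) lies higher in si-v.

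Of the 113 receptors, 10 stayed under 1 FPKM in both libraries and entered no median. They were FBXL6, FBXO6, FBXO16 and FBXO36 of CUL1, and KLHL9, KLHL31, KLHL35, KLHL41, KCTD7 and KCTD15 of CUL3. Their levels ranged from 0.0173 FPKM for KCTD15 to 0.978 for FBXO36. KLHL35 was the farthest apart of them, at 0.105 and 0.627 FPKM on about 2 and 12 fragments.

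Beyond the gene sums, the transcript that led a receptor often differed between the libraries. Among the 52 receptors of at least 5 FPKM in either library with at least 2 listed transcripts, the leading transcript differed in 11 (21.2%), and it differed in 23.3% of 6472 such genes in all. The share among receptors was thus near that of all such genes. The 11 were DCAF8, DCAF11, DCAF13 and DCAF17 of CUL4, FBXL12, FBXO8, FBXO22 and FBXW11 of CUL1, and SPOP, KCTD6 and KCTD17 of CUL3. In 3 of them (DCAF8, DCAF13 and SPOP) both leading transcripts carry the same coding sequence, and in the other 8 the coding sequences differ.

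**Figure D4:**
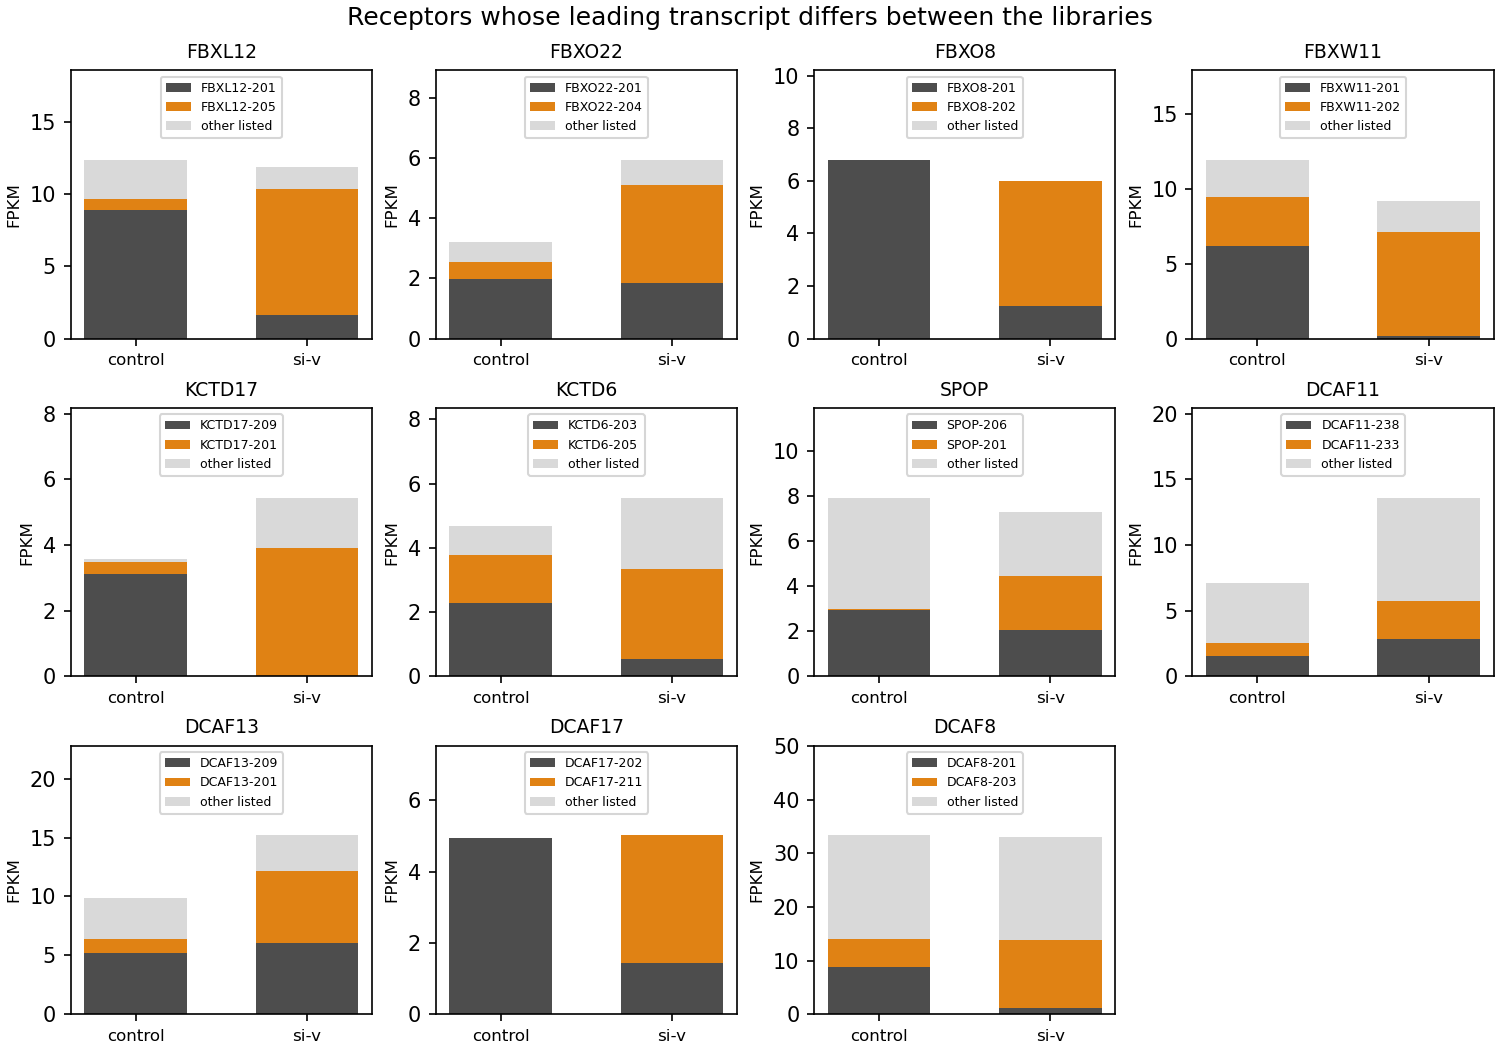
FPKM (y axis, from 0) of the 11 receptors whose leading transcript differed, in the control and si-v libraries (x axis). Dark bars are the transcript that led in the control, orange bars the one that led in the si-v library, and light bars all other listed transcripts; in DCAF8, DCAF17, FBXL12 and FBXO8 the gene total was within 1.5-fold while the order of the bars differed.

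FBXW11 shows how the coding sequences of such transcripts can differ. FBXW11-201 stood at 6.20 FPKM in control against 0.135 in si-v, and FBXW11-202 at 3.28 and 6.98. They share 1524 coding bases, and their coding sequences differ by an alternative exon near the start. Their transcript starts also differ, with 102 exon bases in FBXW11-201 alone and 299 in FBXW11-202 alone. The coding stretches that set leading transcripts apart are shown for 4 receptors in which a coding stretch of over 60 bases is found in 1 leading transcript alone. In FBXO8 the transcripts differ further, with 1031 exon bases in FBXO8-201 alone. They are coding bases found in one leading transcript and outside the exons of the other, read from the GENCODE release 29 transcripts on GRCh38, 5′ to 3′ on the strand of the gene, in lower case throughout as no shorter motif is singled out.
FBXW11-201: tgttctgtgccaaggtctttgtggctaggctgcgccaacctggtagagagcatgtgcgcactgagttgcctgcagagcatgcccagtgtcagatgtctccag
FBXW11-202: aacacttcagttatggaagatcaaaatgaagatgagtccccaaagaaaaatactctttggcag
DCAF17-202: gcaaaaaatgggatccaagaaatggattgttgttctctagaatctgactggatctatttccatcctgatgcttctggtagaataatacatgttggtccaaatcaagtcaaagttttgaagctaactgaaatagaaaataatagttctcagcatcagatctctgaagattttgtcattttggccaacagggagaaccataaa
FBXO8-201: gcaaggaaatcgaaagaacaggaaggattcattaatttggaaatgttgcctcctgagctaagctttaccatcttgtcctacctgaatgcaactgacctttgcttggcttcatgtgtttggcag
KCTD17-201: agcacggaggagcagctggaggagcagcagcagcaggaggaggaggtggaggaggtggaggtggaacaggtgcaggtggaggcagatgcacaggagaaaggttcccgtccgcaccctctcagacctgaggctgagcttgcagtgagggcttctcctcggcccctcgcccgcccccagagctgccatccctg

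The FBXW11-201 stretch is a coding exon of 102 bases at chr5:171957597-171957698 on the minus strand, and the FBXW11-202 stretch is one of 63 bases at chr5:171914343-171914405. Both are multiples of 3 and start at coding base 46, so the exchange keeps the reading frame. For FBXO8-201 the stretch holds 123 coding bases at chr4:174262796-174262918 on the minus strand. The DCAF17-202 stretch holds 201 spliced coding bases between positions 171473866 and 171476950 of chromosome 2, on the plus strand, and DCAF17-211 lacks them. The KCTD17-201 stretch holds 191 spliced coding bases between 37060823 and 37061629 of chromosome 22, on the plus strand. These positions are on GRCh38, while the deposited values were made on hg19.

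DCAF17 and FBXO8 had different leaders with gene sums inside 1.5-fold. DCAF17-202 stood at 4.94 FPKM in control against 1.44 in si-v, and DCAF17-211, listed at 0 in the control, stood at 3.58. FBXO8-201 stood at 6.81 and 1.24 FPKM, and FBXO8-202, listed at 0 in the control, at 4.75. In KCTD17 the shorter-coding KCTD17-209 stood at 3.13 FPKM in control and was near 0 (0.00186) in si-v, while KCTD17-201 stood at 0.363 and 3.92. The transcript that led SPOP in control stood at 2.95 and 2.07 FPKM and SPOP-201 at 0.0434 and 2.36, with 1 coding sequence between them. KCTD6-203, with 27 annotated coding bases, stood at 2.27 and 0.554 FPKM and KCTD6-205, with 711, at 1.49 and 2.78. DCAF11-238 and DCAF11-233 were both higher in si-v, at 1.55 and 2.82 and at 0.992 and 2.90 FPKM, and so were DCAF13-209 (5.19 and 6.06) and DCAF13-201 (1.2 and 6.15). These values depend on how reads common to overlapping transcripts were divided upstream, and whether the transcripts themselves differed was not tested.

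FBXL12 and DCAF8 showed the same at higher level. FBXL12-201, which codes for 978 bases, stood at 8.91 FPKM in control against 1.63 in si-v, and FBXL12-205, annotated with 255 coding bases, at 0.767 and 8.71. DCAF8-201 stood at 8.88 and 1.08 FPKM and DCAF8-203 at 5.18 and 12.7, with the same 1791 coding bases and different transcript starts. DCAF6 had 1 leader in both libraries, but DCAF6-202 stood at 7.43 FPKM in the control and was listed at 0 in the si-v library, while DCAF6-201 stood at 11.7 and 27.3. In DCAF12 the opposite was seen, with DCAF12-202 of 803 bases listed at 0 in control and at 4.07 in si-v.

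The log2 ratio of summed FPKM and the fragment ratio differed by over 0.3 log2 units in 13 of the 103 receptors (all genes: 13.6%), 1 of CUL4, 9 of CUL1 and 3 of CUL3. Some of the 13, such as FBXW9 and KLHL26, have 1 listed transcript, where only the added 1 separates the measures. DCAF12 was level in FPKM (15.3 in control against 15.1 in si-v, -0.03) with a fragment ratio of -0.37, and FBXO8 stood at 6.81 and 5.99 (-0.16) with a fragment ratio of -0.73. KCTD6, at 4.67 and 5.57 FPKM (0.21), had a fragment ratio of 0.72. Over all 103, the counting interval of the fragment ratio lay below 0 for 36 receptors (all genes: 30.7%), above 0 for 21 (all genes: 29.4%) and held 0 for 46.

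The ratio varied with GC content across the transcriptome, and less so across receptors. Spearman's rho between GC content and log2 ratio was 0.34 over the 11046 genes and 0.24 over the 103 receptors, given as a description, since the points share 2 libraries. Receptor transcripts had a median GC content of 46.9%, against 48.8% for all genes. Among genes under the all-gene median of GC content, the median log2 ratio was -0.12 for all genes and -0.18 for 57 receptors. At or above it, the medians were 0.15 for all genes and -0.02 for 46 receptors. By class, the 10 CUL4 receptors under that GC content had a median of -0.03, above that of all genes there, while CUL1 and CUL3 receptors had -0.18 and -0.24. At or above it, all the classes lay below the median of all genes there. The medians were 0.02 for 6 CUL4, -0.06 for 21 CUL1 and -0.01 for 19 CUL3 receptors. Named against the trend were FBXW5, at 66.4% GC and a log2 ratio of -0.93, and FBXO45, at 42.3% and 0.60.

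**Figure D5:**
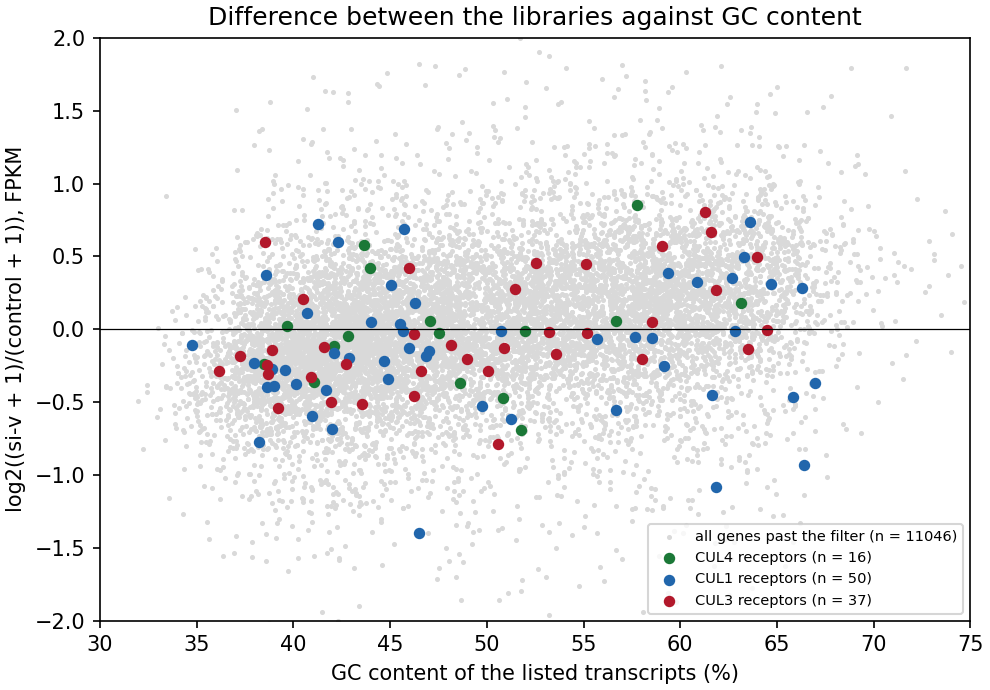
Log2 ratio (y axis, shown from -2 to 2) against the GC content of the listed transcripts in percent (x axis), for all genes past the filter in grey and receptors by class. The grey cloud rises to the right (rho 0.34) and the receptors follow it less closely (rho 0.24).

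The wider cullin ligase machinery, from scaffolds and adaptors to regulators and partner enzymes, had a median level of 22.6 FPKM in control, against 7.11 for the receptors. Of 45 genes in a list of cullins, adaptors, the NEDD8 pathway, the COP9 signalosome and partner ubiquitin-conjugating enzymes, 44 were listed and 43 passed the filter, with a median log2 ratio of -0.08; 1 was higher (all genes: 9.82%) and 4 were lower (all genes: 8.91%) by 1.5-fold. The 4 are 9.30% of the list, near the share of all genes. CUL1 stood at 47.3 FPKM in control against 49.0 in si-v (0.05), CUL4A at 53.7 and 43.5 (-0.30) and CUL4B at 31.7 and 28.2 (-0.16). CUL3 was lower than either, at 14.4 and 8.43 FPKM (-0.71), past 1.5-fold. The CUL4 adaptor DDB1 stood at 51.9 and 49.1 FPKM (-0.08). The CUL1 adaptor SKP1 stood at 86.4 and 111 FPKM (0.36), although its fragment ratio was -0.15, the other way.

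Beside CUL3, the machinery genes lower by 1.5-fold were COPS3, UBE2D1 and DCUN1D5. COPS3, a subunit of the COP9 signalosome that removes NEDD8 from cullins, stood at 25.5 FPKM in control against 9.11 in si-v (-1.39). UBE2D1, a ubiquitin-conjugating enzyme, stood at 15 and 8.98 (-0.68), and DCUN1D5, which helps attach NEDD8, at 55.6 and 36.1 (-0.61). ELOB, an adaptor of CUL2 and CUL5, was the gene higher by 1.5-fold, at 48.4 and 82.1 FPKM (0.75). The next highest ratios were those of CUL9, at 1.95 and 3.19 (0.51), and CUL7, the partner of FBXW8, at 12.4 and 16.9 (0.42).

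Receptors whose symbols fall outside the rule had a like median, but larger shares of them lay past 1.5-fold. Of 33 in the list, all 33 were listed and 31 passed the filter, with a median log2 ratio of -0.11. By 1.5-fold, 4 were higher (12.9%, all genes: 9.82%) and 5 lower (16.1%, all genes: 8.91%). For the receptors taken by symbol these shares were 7.77% and 8.74%. The highest ratios were those of KBTBD2 at 16.2 FPKM in control against 32.3 in si-v (0.95), ARMC5 at 0.616 and 1.75 (0.77) and WDTC1 at 2.79 and 4.94 (0.65). The fragment ratio of KBTBD2, however, was -0.08. ARMC5 passed the filter in the si-v library alone, so its place among the higher genes is partly set by the filter. The lowest were IVNS1ABP at 24.1 and 10.9 (-1.08), BTBD3 at 6.08 and 2.73 (-0.93) and BRWD1 at 9.79 and 5.73 (-0.68). By fragment ratio, BRWD1 at -0.36 and LMO7 at -0.42, both among the 5 lower, lay inside 1.5-fold. The others of the 5 stayed past it. KEAP1, the CUL3 receptor that holds NRF2 in check, stood at 17.6 and 25.6 FPKM (0.51).

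The mRNAs of known substrates were set beside their receptors, with the reserve that ligases act on protein, which was not measured. Of 32 substrate genes 30 were listed and 29 passed the filter, with a median log2 ratio of 0.08; 2 were higher (6.90%; all genes: 9.82%) and 4 lower (13.8%; all genes: 8.91%) by 1.5-fold. One of the 4, FBXO5, is also counted among the receptors. WNK4, 1 of the 2 higher, passed the filter in the si-v library alone, so its place in that count is partly set by the filter. NFE2L2, the gene of the KEAP1 substrate NRF2, stood at 45.0 FPKM in control against 27.6 in si-v (-0.69), opposite to KEAP1. CDKN1B, the SKP2 substrate p27, stood at 18.2 and 16.2 (-0.16), and IREB2, the FBXL5 substrate, at 8.79 and 7.63 (-0.18). CDT1 and KMT5A, both DTL substrates, stood at 4.70 and 6.54 (0.40) and at 14.5 and 20.7 (0.49).

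Among the FBXW7 and SPOP substrates, which were picked after their values were seen, directions were mixed. Of FBXW7 substrates, MYC was level at 7.79 FPKM in control against 7.75 in si-v (-0.01), JUN stood at 87.0 and 108 (0.30) and MCL1 at 47.8 and 35.4 (-0.42). Of SPOP substrates, DAXX stood at 24.1 and 35.9 (0.55) and GLI2 at 3.18 and 1.23 (-0.90). The 3 highest ratios of the list were those of EPAS1 at 8.94 and 15.4 FPKM (0.72), WNK4 at 0.536 and 1.45 (0.67) and DAXX. The lowest, after GLI2, were WEE1 at 14.8 and 7.63 (-0.88) and FBXO5.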

How the data were processed

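Per the submitters' processing notes, cutadapt, HISAT2 2.0.5 and StringTie were used on hg19; their settings and use of strand are not known here, and a gene and its antisense partner may share reads. The authors' deposited table gives 39605 transcripts in 2 libraries. The FPKM values deposited by the authors were made with tools that include StringTie, per the submitters' processing notes; the table's header names no unit, and FPKM was read from the values, since StringTie writes FPKM and TPM and the 2 column sums differ (301790 and 298813).

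Transcript IDs were matched without version to GENCODE release 29 (99.5%; 179 unmatched), used for symbols, lengths, GC content and coding exons. FPKM was summed per gene (12918 genes). The main measure was the log2 ratio with a pseudocount of 1, a filter of 1 FPKM in either library, and 1.5-fold as the rule of size, with 2-fold as a stricter one. Fragments were estimated from the peak of low FPKM times length in genes with 1 listed transcript (90.9 and 84.1; 52.3% and 48.7% of the 86 and 76 values near it lay within 5%), so they are approximate. A fragment ratio is the log2 ratio of FPKM times length summed over transcripts; its intervals are 95% Clopper-Pearson, for counting error only. The steps were checked on simulated data. Python 3.11.15, scipy 1.17.1 and pandas 2.3.3 were used.

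The receptors and lists were chosen with earlier results of these data known. In each class the text names the 3 highest levels, members of 5 FPKM or more past 1.5-fold, the 3 top and 3 bottom ratios, members of 5 FPKM or more whose leading transcript differs, and CRBN, DTL, DDB2, SPOP, SKP2, FBXW7 and KLHL22, and of each other list the 3 highest and 3 lowest ratios; other genes were named after their values were seen. The alternatives were pseudocounts of 0.1 and 0.5, no filter, a filter of 5, 2 scalings, the most abundant transcript, and removal of the GC content and length trend. Fragments per gene and transcripts of at least 1000 bases were added after the data were seen. Values of 2 single genes are not reported here; both stay in the counts and medians.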

Additional observations from a re-analysis of the deposited data

How the results depend on the processing

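With 1 library per group no setting gives a spread between cultures, and fragment numbers are estimates. The class medians and the median of the cullin ligase machinery kept their sign and moved by less than 0.1 log2 units under all 10 alternatives. Counts were small, and some moved by 1 gene while others moved by more. With a pseudocount of 0.1, CUL4 receptors higher by 1.5-fold numbered 2 and CUL3 receptors higher 5 (all genes: 13.14%). With that pseudocount, CUL1 receptors lower numbered 11 (all genes: 12.02%), and receptors higher by 2-fold 2. The shares of all genes past 1.5-fold were thus also larger than in the main analysis. With a pseudocount of 0.5, CUL4 receptors higher numbered 2 (all genes: 11.5%). With a filter of 5 FPKM, 0 CUL4 receptors were lower (all genes: 8.67%) and 2 CUL1 and 1 CUL3 receptors higher (all genes: 9.93%). By 2-fold, 1 receptor was lower with that filter. Scaled without the mitochondrial genome, 2 CUL3 receptors were lower (all genes: 10.8%). Read from the most abundant transcript, 2 CUL4 receptors were higher (all genes: 14.2%), and 2 CUL4 and 2 CUL3 receptors were lower (all genes: 14.4%). By 2-fold, 3 receptors were higher and 7 lower on that transcript. The shares of all genes by 2-fold under the alternatives are not given here. After a trend on GC content and length was taken out, 2 CUL4 receptors were higher (all genes: 7.57%). On fragments per gene 2 CUL4 receptors were lower (all genes: 9.05%). With transcripts of at least 1000 bases, 0 CUL4 receptors were higher (all genes: 9.43%) and 2 CUL3 receptors lower (all genes: 9.43%). The most abundant transcript turned the log2 ratio of FBXL17 to 0.066 and that of FBXO22 to -0.054. Of the 17 receptors past 1.5-fold, 6 stayed past it under all 10 alternatives: FBXO34, FBXO5, FBXW5, FBXW8, KCTD10 and KLHL21. The cause of the other changes was not tested. No paired analysis was possible because each group has 1 library.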
